A study of Rattus norvegicus with 18 samples.

Results

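The lung transcriptomes of 6 male F344 rats that had received a multiwalled carbon nanotube (MWCNT) were compared between Year 1 and Year 2 of dosing, as 6 of the 18 rats of the series. The members were fixed by the sample labels, as the 3 MWCNT-treated rats killed at week 52 (Year 1) and the 3 killed at week 104 (Year 2). All 6 rats received MWNT-7, a thick, needle-like MWCNT, at 0.5 mg/kg body weight into the trachea every 4 weeks from 9 weeks of age, so that they were 61 weeks old at Year 1 and 113 weeks old at Year 2. The other rats were 3 MWCNT-treated rats killed at week 26 (Year 0.5) and 3 vehicle control rats, which received 0 mg/kg, at each of the 3 time points. Each rat was a different animal, and the RNA came from a small piece of the accessory lobe, from which tissue with visible tumor nodules had been left out by the authors. Age and the number of MWCNT doses rose together between the time points, and in the MWCNT-treated rats alone they cannot be told apart. The 6 control rats of Year 1 and Year 2 differed in age and in the number of vehicle doses.

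The alveolar wall is built from flat type 1 cells, surfactant-making type 2 cells, a dense capillary endothelium, and fibroblasts, and alveolar macrophages take up inhaled particles. Fibers too long to be engulfed persist, and the macrophages and fibroblasts around them lay down matrix. Mast cells are resident immune cells of airways, vessels, and scars that store proteases, histamine, and serotonin in granules and release them when antigen crosslinks IgE on the high-affinity IgE receptor.

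The labelled tissue was checked against the markers of its main cells, which were high in all 6 rats. The type 2 cell gene *Sftpc* was at 36916, 39059, and 37788 TPM (transcripts of a library scaled for gene length and to a common total) in the Year 1 rats and 33979.9, 32139, and 34569.7 TPM in the Year 2 rats. The airway club cell gene *Scgb1a1* was at 11829.6, 13651, and 12594 TPM and then 10335, 10938, and 10255 TPM, and neither gene passed the test between the years. Total counts ranged from 14661589 to 17158389 in the 6 rats. On the first principal component of the log2 counts scaled to library size, which held 35.77% of the variance, the Year 1 rats lay at -30.76, -9.4, and -22.44 and the Year 2 rats at 24.31, 22.31, and 15.98. The second rat of Year 1, at -9.4, lay nearest to the Year 2 rats, and counts of passing genes in the main gene lists are given without it.

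A gene was called when the edgeR quasi-likelihood test gave a Benjamini-Hochberg false discovery rate (FDR) below 0.05 and the absolute log2 fold change was above 1. Of 14299 genes tested between Year 1 and Year 2 in the MWCNT-treated rats, 78 (0.545%) were called, with 49 higher (0.343%) and 29 lower (0.203%) at Year 2. At an FDR below 0.05 with no limit on the fold change, 426 genes (2.98%) passed, with 220 (1.54%) higher and 206 (1.44%) lower. Across all tested genes the median of the log2 fold changes was 0.001. In the control rats, the same comparison called 19 of 14250 genes (0.133%), with 12 higher (0.0842%) and 7 lower (0.0491%), and at an FDR below 0.05 alone 131 (0.919%), with 40 higher (0.281%) and 91 lower (0.639%). An unadjusted p below 0.05 was reached by 18.6% of the genes in the MWCNT-treated rats, 23.7% in the control rats, and 15.3% in the test of the difference between them. The count in the MWCNT-treated rats changed when 1 rat was left out, which also leaves fewer rats to compare, and the cause was not tested. It was 156 without the second rat of Year 1, 48 without the first, and 13 without the third rat of Year 1, and it was 35, 27, and 90 without the first, the second, and the third rat of Year 2. All 78 called genes kept their direction in each of these 6 fits.

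The 9 called genes with the largest rises at Year 2 were all genes that mast cells or basophils are known to express. Of 14 genes on a list of mast cell and basophil genes, 11 were tested, and 6 were called higher, against 0.343% of all tested genes. At the FDR alone 7 passed as higher and none as lower, against 1.54% and 1.44% of all tested genes. The 3 Year 2 rats lay above all 3 Year 1 rats in 9 of the 11 genes, against 10.5% of all tested genes, and the median log2 fold change of the list was 2.26. The summed level of the listed genes was 180.2, 237, and 185 TPM in the Year 1 rats and 575, 527, and 603 TPM in the Year 2 rats. The 9 control rats lay between 238 and 309 TPM, and most of that came from *Kit* and *Gata2*, which were at 102, 97.4, and 95.1 TPM and 137, 121, and 138 TPM in the control rats of Year 1.

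The high-affinity IgE receptor showed the change in 2 of its chains. *Fcer1a*, the chain that binds IgE (chromosome 13, 91730925 to 91737053), was at 0.745, 2.14, and 1.48 TPM in the Year 1 rats and 13.3, 8.97, and 13.5 TPM in the Year 2 rats. It rose 8.05-fold (log2 fold change 3.01 ± 0.37, SE, n = 3 and 3; FDR = 0.00968). *Ms4a2*, its signalling beta chain (chromosome 1, 227957302 to 227965386), was at 1.77, 3.67, and 1.58 TPM and then 13.7, 11.5, and 13.3 TPM, a rise of 5.43-fold (log2 fold change 2.44 ± 0.30, FDR = 0.00977). The groups did not overlap for either gene, and in the control rats of both years *Fcer1a* stayed between 0.347 and 1.35 TPM and *Ms4a2* between 0.485 and 1.17 TPM.

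The proteases of mast cell granules rose with the receptor. The tryptase gene *Tpsb2* (chromosome 10, 14722756 to 14724600) was at 7.92, 21.1, and 11.3 TPM in the Year 1 rats and 82.6, 79.02, and 91.3 TPM in the Year 2 rats, and the neighbouring tryptase gene *Tpsab1* (chromosome 10, 14701253 to 14703668) at 7.63, 23.3, and 11.3 TPM and then 92.8, 77.7, and 108 TPM. They rose 6.197-fold (log2 fold change 2.63 ± 0.30, FDR = 0.00941) and 6.498-fold (log2 fold change 2.70 ± 0.35, FDR = 0.0119). The second rat of Year 1 was the highest of its group in both, and still lay below all 3 Year 2 rats. Of the chymases, *Cma1* (chromosome 15, 34601037 to 34603819) was at 2.101, 12.6, and 5.17 TPM and then 34.3, 30.3, and 32.4 TPM (log2 fold change 2.26 ± 0.47, FDR = 0.0411), and *Mcpt1l1* (chromosome 15, 34609776 to 34612432) was at 13.2, 54.3, and 17.9 TPM and then 194, 177, and 174 TPM (log2 fold change 2.65 ± 0.44, FDR = 0.02). *Mcpt1l1* reached the highest level of the mast cell genes. The carboxypeptidase gene *Cpa3* was at 6.74, 26.05, and 8.97 TPM and then 58.3, 46.1, and 63.7 TPM without overlap, and with an FDR of 0.0502 it did not pass. Of the relatives of the basophil protease Mcpt8 in the same cluster on chromosome 15, *Mcpt8l3* was at 1.299, 2.82, and 1.77 TPM and then 10.2, 8.81, and 14.3 TPM and *Mcpt8l2* was at 2.87, 7.42, and 5.71 TPM and then 15.7, 18.4, and 24.6 TPM, and both were called higher (log2 fold changes 2.48 ± 0.30 and 1.86 ± 0.32). Tryptases and *Mcpt* genes are families of close paralogs whose reads the counting could divide among copies, so the level of each single copy is uncertain.

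Genes of the amines that mast cells store were higher at Year 2. *Tph1*, the rate-limiting enzyme of serotonin synthesis outside the brain, was at 0.404, 1.42, and 0.6198 TPM in the Year 1 rats and 5.81, 5.95, and 6.801 TPM in the Year 2 rats (log2 fold change 2.89 ± 0.37, FDR = 0.0117). *Slc18a2*, the transporter that loads amines into granules, was at 3.54, 2.84, and 2.99 TPM and then 6.86, 6.55, and 7.41 TPM (log2 fold change 1.17 ± 0.14, FDR = 0.00941). *Hdc*, the enzyme that makes histamine, was at 6.97, 8.39, and 7.35 TPM and then 12.7, 15.001, and 16.01 TPM, a rise of 1.94-fold (log2 fold change 0.95 ± 0.14, FDR = 0.0143). The Year 2 levels of *Hdc* overlapped those of the Year 2 control rats, which were at 12.4, 14.5, and 13.9 TPM, whereas the control rats of Year 2 were at 0.105, 0.136, and 0.188 TPM for *Tph1*. *Mrgprb3*, a receptor of the Mas-related family that is expressed on rodent mast cells, was at 0.532, 1.29, and 1.06 TPM and then 8.92, 6.24, and 7.07 TPM (log2 fold change 2.94 ± 0.30, FDR = 0.00752), and its relative *Mrgprx2* was called as well, at 4.37, 5.01, and 4.99 TPM and then 11.5, 11.9, and 9.66 TPM.

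Some listed mast cell genes did not follow. *Kit*, the receptor for stem cell factor, was at 59.2, 35.98, and 50.2 TPM in the Year 1 rats and 36.4, 40.6, and 36.5 TPM in the Year 2 rats (log2 fold change -0.33 ± 0.14, FDR = 0.241), and *Gata2*, a transcription factor, at 73.6, 47.2, and 68.2 TPM and then 35.3, 38.8, and 50.2 TPM (log2 fold change -0.58 ± 0.16, FDR = 0.089). Both are also expressed by lung endothelium, most of whose listed genes were lower at Year 2, and the part of endothelium in these levels was not tested. *Hpgds*, the prostaglandin D synthase of mast cells, was at 0.413, 1.87, and 1.24 TPM and then 2.696, 2.18, and 3.07 TPM (FDR = 0.253). In the control rats, 8 of the listed genes could be tested and 0 passed by edgeR (0.919% of all tested genes did) or DESeq2. Of the 8, 1 was at an unadjusted p below 0.05, against 23.7% of all tested genes. The difference between the MWCNT-treated and control rats in their change from Year 1 to Year 2 passed the FDR by edgeR for 0 of the 11 listed genes (0.258% of all tested genes passed), with 7 at an unadjusted p below 0.05, 3 passing by DESeq2, and an FDR of 0.0759 for *Tpsb2*, 0.0779 for *Tpsab1*, and 0.0716 for *Ms4a2*. Without the second rat of Year 1, 8 of the listed genes were called. Without the third rat of Year 1 none was called, with an FDR of 0.0526 for *Tpsb2* and 0.0628 for *Fcer1a*, and without the second rat of Year 2 the number that passed the FDR fell from 7 to 4.

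**Figure D1:**
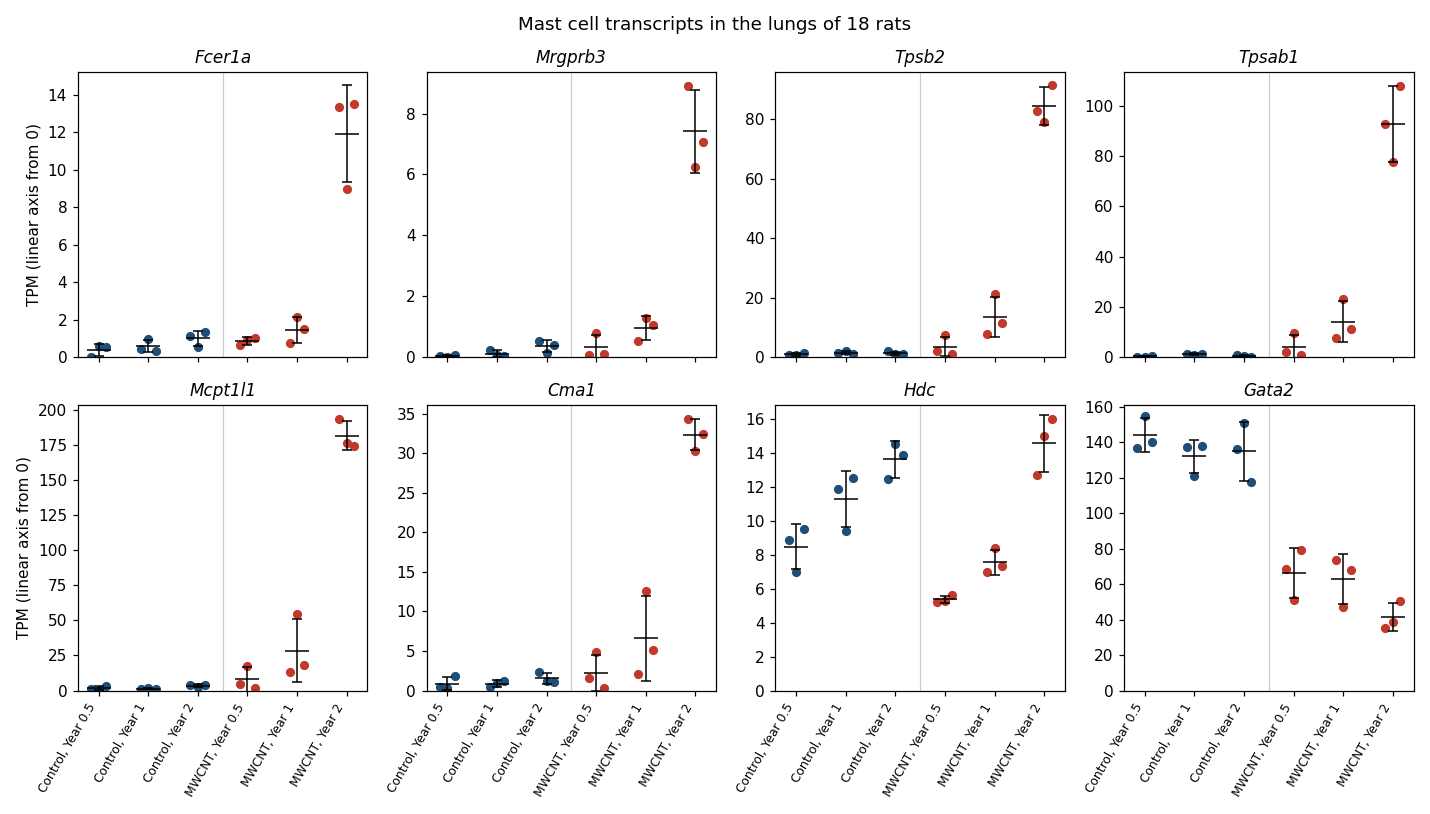
TPM of 8 mast cell genes in each of the 18 rats (points; linear y axes from 0), by treatment and time point, with the mean and SD of each group of 3 (bars). In 7 of the 8 panels the Year 2 MWCNT-treated rats lie above all Year 1 MWCNT-treated rats, while *Gata2* overlaps between those years.

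The proximal promoters of the mast cell genes are shown because these genes moved together, with *Plvap*, an endothelial gene that fell, for contrast. Each sequence covers 250 bases before and 50 bases after the annotated RefSeq start on the assembly GRCr8, 5′ to 3′ on the strand of the gene. Capitals mark the word AGATAA with its variant AGATAG and the word TGATAA with its variant TGATAG, read on both strands, which are core forms of the site bound by GATA factors.
Tpsb2, chr10:14886060-14886359, plus strand: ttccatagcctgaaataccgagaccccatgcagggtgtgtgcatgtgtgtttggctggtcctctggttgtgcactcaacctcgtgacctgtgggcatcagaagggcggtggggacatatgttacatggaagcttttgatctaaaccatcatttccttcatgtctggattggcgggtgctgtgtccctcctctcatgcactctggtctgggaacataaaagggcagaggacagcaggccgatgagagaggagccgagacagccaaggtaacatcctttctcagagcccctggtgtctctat
Cma1, chr15:33390084-33390383, minus strand: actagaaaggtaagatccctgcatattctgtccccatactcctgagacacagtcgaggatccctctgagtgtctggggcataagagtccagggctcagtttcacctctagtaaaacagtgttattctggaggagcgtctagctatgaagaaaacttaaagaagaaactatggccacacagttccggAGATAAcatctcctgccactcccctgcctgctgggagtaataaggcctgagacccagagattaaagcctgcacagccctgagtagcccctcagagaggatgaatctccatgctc
Fcer1a, chr13:88224630-88224929, minus strand: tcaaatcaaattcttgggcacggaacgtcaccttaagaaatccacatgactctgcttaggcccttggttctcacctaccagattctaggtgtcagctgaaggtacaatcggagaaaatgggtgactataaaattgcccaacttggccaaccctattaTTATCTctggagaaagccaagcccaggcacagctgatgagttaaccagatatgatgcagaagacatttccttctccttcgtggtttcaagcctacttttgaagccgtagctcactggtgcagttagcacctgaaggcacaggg
Mcpt1l1, chr15:33876846-33877145, minus strand: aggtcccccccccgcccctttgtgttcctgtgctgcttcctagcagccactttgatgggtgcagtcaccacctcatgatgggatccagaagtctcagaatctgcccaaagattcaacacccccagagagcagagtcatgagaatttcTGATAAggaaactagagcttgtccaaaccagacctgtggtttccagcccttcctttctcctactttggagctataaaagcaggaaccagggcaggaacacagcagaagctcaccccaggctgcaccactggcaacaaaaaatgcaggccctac
Plvap, chr16:18231230-18231529, minus strand: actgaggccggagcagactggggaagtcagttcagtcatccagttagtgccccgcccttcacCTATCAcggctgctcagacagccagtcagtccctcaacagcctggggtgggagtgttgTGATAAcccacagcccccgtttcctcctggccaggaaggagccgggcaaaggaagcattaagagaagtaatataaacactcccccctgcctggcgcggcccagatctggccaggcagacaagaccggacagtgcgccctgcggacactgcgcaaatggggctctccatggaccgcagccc
The word began at position -64 in *Cma1*, -93 in *Fcer1a*, and -103 in *Mcpt1l1*, at -188 and -130 in *Plvap*, and was not found in the *Tpsb2* window. At least 1 word was found in 4 of the 9 mast cell promoters present in the RefSeq table (44.4%), in 9 of the 33 promoters of called genes that rose (27.3%), in 8 of the 19 of called genes that fell (42.1%), and in 29.9% of all 27457 promoters.

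A second group of genes higher at Year 2 encoded extracellular matrix and its regulators. *Thbs2*, a matricellular protein of scar tissue (chromosome 1, 56653938 to 56683731), was at 16.2, 11.9, and 14.9 TPM in the Year 1 rats and 32.1, 24.9, and 29.8 TPM in the Year 2 rats, and rose 2.05-fold (log2 fold change 1.04 ± 0.12, FDR = 0.00941). *Ccn4*, a secreted target of Wnt signalling (chromosome 7, 107695215 to 107723772), was at 0.894, 0.771, and 1.34 TPM and then 2.73, 3.39, and 3.79 TPM, a rise of 3.34-fold (FDR = 0.02). *Thy1*, a surface protein of fibroblasts and T cells, was at 4.66, 6.85, and 5.27 TPM and then 14.95, 14.7, and 27.8 TPM, a rise of 3.42-fold (FDR = 0.0176), with the third rat of Year 2 the highest. The years did not overlap in any of these genes, and the control rats of both years stayed between 1.33 and 2.59 TPM for *Thbs2*.

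Of the 31 tested genes for fibrosis matrix and crosslinking, 3 were called higher (*Thbs2*, *Ccn4*, and *Inhba*), against 0.343% of all tested genes. *Postn* passed the FDR as lower (1.44% of all tested genes did), and the median log2 fold change was 0.14. The number called higher was 2 without the second rat of Year 1, 1 without the first, and 0 without the third, and it was 0, 1, and 2 without the first, the second, and the third rat of Year 2. *Postn*, periostin, was at 213, 178, and 216 TPM in the Year 1 rats and 146, 134, and 139.5 TPM in the Year 2 rats and fell 1.42-fold (FDR = 0.0174). It fell in the control rats as well, from 318, 290.1, and 292 TPM to 202, 226, and 213 TPM (log2 fold change -0.46, FDR = 0.0382). Of 26 tested collagen genes, 3 passed as higher (1.54% of all tested genes did) and none as lower. That number was again 3 without the second rat of Year 1, and 0 or 1 without any one of the other 5 rats. The 3 genes were *Col9a2* at 4.76, 2.73, and 3.72 TPM and then 6.85, 8.64, and 7.15 TPM, *Col8a1*, a short-chain collagen of vessel walls and basement membranes, at 6.66, 5.04, and 6.69 TPM and then 10.1, 9.37, and 10.2 TPM, and *Col1a1*, the main chain of fibrillar type I collagen, at 161, 128, and 165 TPM and then 247, 208, and 214 TPM. *Col1a1* rose 1.496-fold (log2 fold change 0.58 ± 0.11, FDR = 0.029), while in the control rats it was at 149.6, 158, and 131 TPM and then 105, 108, and 122 TPM (log2 fold change -0.36, FDR = 0.0748). The difference between the 2 changes passed the test (FDR = 0.0354). Outside the lists, *Fndc1* and *Cilp* also encode matrix proteins and were called, chosen for mention after their values were seen, with *Fndc1* at 2.75, 3.596, and 3.79 TPM and then 7.94, 7.49, and 7.91 TPM and *Cilp* at 3.73, 5.903, and 4.33 TPM and then 10.6, 16.05, and 15.02 TPM.

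Of 39 tested ligands, inhibitors, and receptors of the TGF-beta and BMP family, 3 passed the FDR as higher and 3 as lower, against 1.54% and 1.44% of all tested genes. Without the second rat of Year 1, 4 passed as higher and 8 as lower, without the third rat of Year 2 1 passed in each direction, and without any one of the other 4 rats none passed. Among the ligands, *Inhba*, the subunit of activin A, was at 1.66, 2.21, and 1.65 TPM in the Year 1 rats and 4.56, 5.43, and 4.13 TPM in the Year 2 rats (log2 fold change 1.36 ± 0.22, FDR = 0.0176), and *Bmp6* was at 87.8, 72.3, and 97.1 TPM and then 55.2, 55.7, and 62.1 TPM (log2 fold change -0.55 ± 0.09, FDR = 0.0204). Their log2 fold changes in the control rats were -0.55 (FDR = 0.655) and 0.08 (FDR = 0.499). *Fst*, follistatin, which binds activin, was at 5.75, 5.72, and 5.07 TPM and then 9.12, 10.4, and 12.3 TPM (log2 fold change 0.95 ± 0.18, FDR = 0.0333). Among the receptors, *Tgfbr1* was at 102, 101, and 92.3 TPM and then 136, 137, and 120.3 TPM (FDR = 0.0485), and *Bmpr1a* at 37.8, 32.3, and 38.8 TPM and then 27.9, 27.6, and 29.1 TPM (FDR = 0.0392). In the control rats 0 of the 39 genes passed by edgeR (0.919% of all tested genes did) and 5 by DESeq2. An unadjusted p below 0.05 was reached by 9 of the 39, against 23.7% of all tested genes. The interaction of treatment and time passed for 1 of the 39, *Bmp6* (0.258% of all tested genes passed).

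Of 21 tested genes of lipid-associated macrophages, 4 passed the FDR as higher (1.54% of all tested genes did), none was called, and none passed as lower. The 3 Year 2 rats lay above all 3 Year 1 rats in 12 of them, against 10.5% of all tested genes. The number that passed was 13 without the second rat of Year 1, 2 without the third rat of Year 2, and 0 without any one of the other 4 rats. Of 20 genes tested in the control rats, 16 had a negative log2 fold change, and *Lpl* (-0.50, FDR = 0.0382) and *Msr1* (-0.72, FDR = 0.0468) passed as lower. *Mmp12*, macrophage elastase, was at 268, 289, and 269 TPM in the Year 1 rats and 399, 385, and 414 TPM in the Year 2 rats, against 4.38 to 8.91 TPM in the 6 control rats, and rose 1.47-fold (FDR = 0.0149). *Apoe*, a lipid carrier, was at 2578, 3426, and 3047 TPM and then 5801, 5626, and 4676 TPM (log2 fold change 0.84 ± 0.15, FDR = 0.0252). *Fabp4*, a fatty acid binding protein of macrophages and adipocytes, was at 337, 464, and 318 TPM and then 697, 698, and 639 TPM (log2 fold change 0.87 ± 0.16, FDR = 0.028). The log2 fold changes of *Apoe* and *Fabp4* in the control rats were 0.54 (FDR = 0.0963) and -0.43 (FDR = 0.216). *Atp6v0d2*, a macrophage and osteoclast subunit of the proton pump that acidifies lysosomes, was the fourth (log2 fold change 0.50 ± 0.11, FDR = 0.0459). Other genes of the list did not pass. *Spp1*, osteopontin, was at 1209, 1249, and 963 TPM and then 1724, 1229, and 1169 TPM with overlap (FDR = 0.448), *Gpnmb* at 2625, 3232, and 2534 TPM and then 4353, 4213, and 3782 TPM (FDR = 0.0671), and *Trem2* at 199.9, 234, and 174 TPM and then 294, 302, and 276 TPM (FDR = 0.0637).

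Of 10 tested genes on the alveolar macrophage list, 2 passed as higher and 2 as lower, against 1.54% and 1.44% of all tested genes. *Siglec1* (log2 fold change 0.72 ± 0.12, FDR = 0.0212) and *Itgax* (log2 fold change 0.36 ± 0.06, FDR = 0.0225) rose, and *Krt79* (log2 fold change -0.69 ± 0.14, FDR = 0.0365) and *Ca4*, which is also on the endothelial list, fell. Without the second rat of Year 1, 4 passed as higher and 2 as lower, and without any one of the other 5 rats at most 1 passed in each direction. The transcription factors *Tfeb* and *Mitf*, which turn on lysosomal genes, rose by smaller amounts, with *Tfeb* at 41.4, 40.4, and 43.3 TPM in the Year 1 rats and 50.3, 53.5, and 53.1 TPM in the Year 2 rats and *Mitf* at 12.996, 13.01, and 12.7 TPM and then 17.3, 16.6, and 16.5 TPM. With *Atp6v0d2* they made up the 3 of 30 lysosome genes that passed, against 1.54% of all tested genes as higher, and 10 passed without the second rat of Year 1 and 0 without any one of the other 5 rats. Of the called genes with the highest levels, *Lpo*, lactoperoxidase, an antimicrobial enzyme (chromosome 10, 75100385 to 75120247), was at 107, 64.03, and 83.1 TPM and then 213, 212, and 181 TPM and rose 2.43-fold (FDR = 0.00941). It was at 9.79, 12.9, and 12.2 TPM in the MWCNT-treated rats of Year 0.5 and at most 1.85 TPM in the 9 control rats. *Card14*, a scaffold of NF-kappa B signalling, was at 23.3, 18.6, and 23.2 TPM and then 45.2, 50.9, and 44.3 TPM (log2 fold change 1.13 ± 0.09), and *Matk*, a kinase that restrains Src kinases, was at 41.95, 46.3, and 48.6 TPM and then 93.3, 97.6, and 90.7 TPM (log2 fold change 1.05 ± 0.08). Both had an FDR of 0.00399, and both were chosen for mention after their values were seen. *Matk* was at 8.59, 9.38, and 11.02 TPM in the control rats of Year 1 and 13.7, 26.8, and 15.5 TPM in those of Year 2 (log2 fold change 0.97, FDR = 0.0737).

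Most endothelial genes examined were lower at Year 2, with 29 negative and 3 positive log2 fold changes. Of 32 tested endothelial genes, 3 were called lower (0.203% of all tested genes were), 10 passed the FDR as lower (1.44%), and none passed as higher (1.54%). The Year 2 rats lay below all Year 1 rats in 17 of the 32 tested genes, against 12.4% of all tested genes, and the median log2 fold change was -0.57. In tissue RNA, fewer cells of a type and less RNA per cell cannot be told apart. The summed level of the listed genes was 5737, 4158, and 5673 TPM in the Year 1 rats and 2799, 3297, and 3934 TPM in the Year 2 rats, against values between 9224 and 12114 TPM in the 9 control rats. The second rat of Year 1 was the lowest of its group, at a level close to the highest Year 2 rat.

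*Plvap*, which forms the diaphragms of capillary openings and vesicles (chromosome 16, 19906318 to 19918689), was at 1051, 696, and 1013 TPM in the Year 1 rats and 313, 408, and 541 TPM in the Year 2 rats, and fell 2.16-fold (log2 fold change -1.11 ± 0.19, FDR = 0.0225). *Lyve1*, a hyaluronan receptor of lymphatic and some blood endothelium and of resident macrophages (chromosome 1, 175663266 to 175676699), was at 107, 71.5, and 135 TPM and then 39.7, 46.9, and 46.7 TPM, and fell 2.31-fold (FDR = 0.0146). *Ca4* (carbonic anhydrase 4), a marker of aerocytes, the large alveolar capillary cells, was at 88.1, 66.7, and 79.6 TPM and then 29.1, 35.3, and 48.4 TPM, and fell 2.05-fold (FDR = 0.0156). In the control rats the log2 fold changes of these 3 genes were 0.18, -0.51, and -0.07, and none passed. The interaction of treatment and time did not pass for them either (FDR = 0.0674, 0.224, and 0.108).

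*Tek*, the angiopoietin receptor, was at 139, 97.2, and 123 TPM in the Year 1 rats and 53.9, 65.3, and 78.3 TPM in the Year 2 rats, *Kdr*, the main receptor for VEGF, at 125, 74.6, and 99.7 TPM and then 41.4, 51.5, and 64.5 TPM, and *Ramp2*, the partner of the adrenomedullin receptor, at 407, 343, and 406 TPM and then 192, 218, and 271 TPM. Their log2 fold changes were -0.84 ± 0.14, -0.91 ± 0.18, and -0.75 ± 0.11, with an FDR of 0.0194, 0.0373, and 0.0146, and -0.08, -0.06, and -0.03 in the control rats, where none passed. The interaction of treatment and time passed for 0 of the 32 tested endothelial genes (0.258% of all tested genes passed). *Ednrb* of the list passed as lower in the control rats (log2 fold change -0.74, FDR = 0.0173), with -0.65 in the MWCNT-treated rats (FDR = 0.105). Of the other receptors of the list, *Tie1* (log2 fold change 0.03, FDR = 0.905) and *Flt1* (-0.49, FDR = 0.133) did not pass. *Gpihbp1* (-0.004, FDR = 0.992), *Egfl7* (-0.03, FDR = 0.955), and *Emcn* (-0.05, FDR = 0.818) of the list hardly moved. *Tie1*, *Nos3* (0.17, FDR = 0.529), and *Prox1* (0.52, FDR = 0.257) were the 3 with a positive log2 fold change. *Apln*, the ligand apelin, was at 55.8, 38.2, and 50.7 TPM and then 24.1, 31.9, and 28.1 TPM (FDR = 0.02), while its receptor gene *Aplnr*, at 76.2, 47.4, and 61.3 TPM and then 35.9, 41.7, and 43.6 TPM without overlap, did not pass (FDR = 0.0585). Outside the list, *Esm1*, a secreted proteoglycan of endothelial tip cells, was called at 36.05, 13.3, and 26.4 TPM and then 5.53, 9.96, and 9.603 TPM (log2 fold change -1.56 ± 0.33, FDR = 0.0423). *Hey1*, a target of Notch signalling, was called as well, at 42.9, 25.3, and 39.7 TPM and then 16.3, 15.4, and 19.2 TPM. It was the only one of 18 tested Notch genes that passed (1.44% of all tested genes passed as lower). These endothelial calls depended on the rats compared. The number that passed the FDR was 22 without the second rat of Year 1, 1 without the first, 0 without the third, and 0 without the first or the second rat of Year 2.

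**Figure D2:**
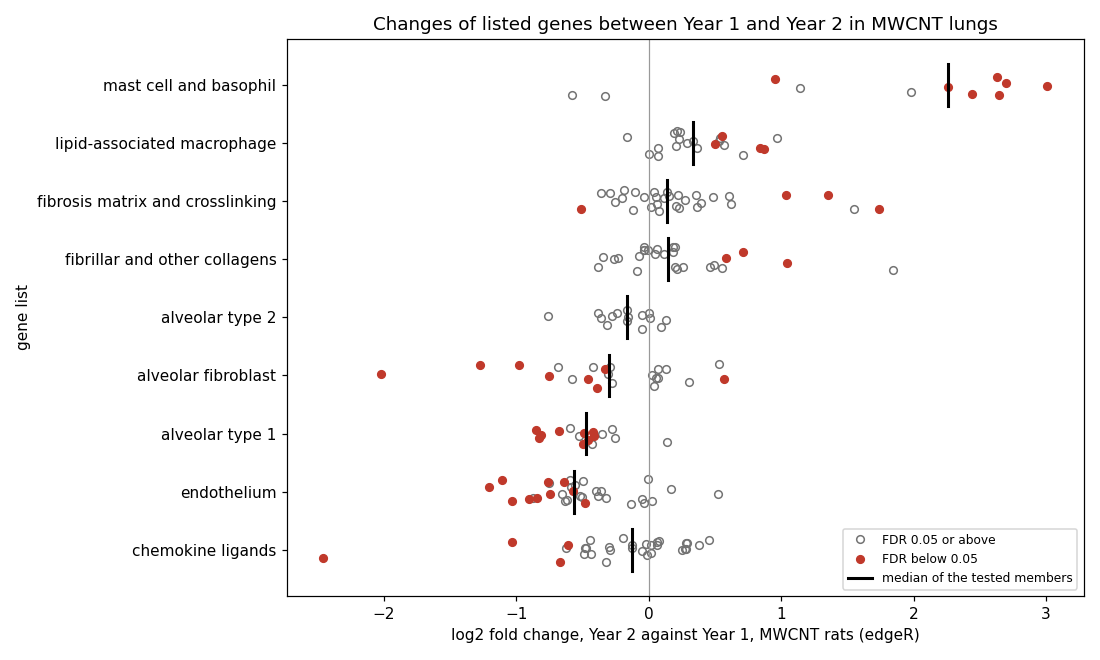
Log2 fold change, Year 2 against Year 1 in the MWCNT-treated rats, of each tested member of 9 gene lists (points; filled where the FDR was below 0.05), with the list median (bar). Mast cell genes lie furthest to the right with a median of 2.26, and most endothelial and type 1 cell genes lie left of 0.

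Of 16 tested type 1 cell genes, none was called, 9 passed the FDR as lower (1.44% of all tested genes did), none passed as higher, 11 were below all Year 1 rats (12.4% of all tested genes were), and the median log2 fold change was -0.47. *Pdpn*, podoplanin, which is shared with lymphatic vessels (chromosome 5, 161947137 to 161981441), was at 453, 399, and 429 TPM in the Year 1 rats and 288, 322, and 311 TPM in the Year 2 rats (log2 fold change -0.46 ± 0.07, FDR = 0.0155). *Emp2*, a membrane protein of type 1 cells, was at 505, 409.6, and 463 TPM and then 307, 324, and 333 TPM (FDR = 0.0176), and *Hopx*, a transcriptional cofactor, was at 780.1, 743, and 807 TPM and then 539, 566, and 619 TPM (FDR = 0.0225). *Cav1*, the coat protein of caveolae, made by type 1 cells and endothelium alike, fell most among those named, from 482, 357, and 495 TPM to 201, 250.4, and 288 TPM (log2 fold change -0.83 ± 0.14, FDR = 0.02). *Ager*, the most abundant type 1 marker examined, was at 1592, 1331, and 1649.5 TPM and then 1172, 1095, and 1255 TPM without overlap, and did not pass (FDR = 0.0794). In the control rats 0 of the 16 genes passed by edgeR (0.919% of all tested genes did) and 2 by DESeq2. An unadjusted p below 0.05 was reached by 4 of the 16, against 23.7% of all tested genes. The interaction of treatment and time passed for 0 of the 16 genes (0.258% of all tested genes passed). The number that passed in the MWCNT-treated rats was 14 without the second rat of Year 1, 5 without the third rat of Year 2, and 0 without any one of the other 4 rats. Of 15 type 2 cell genes, 0 passed by edgeR, 5 passed by DESeq2, and 8 were below all Year 1 rats. Of these 15 genes, 6 were at an unadjusted p below 0.05, against 18.6% of all tested genes. Of 15 ciliated cell genes, 0 passed by edgeR, with 2 at an unadjusted p below 0.05 and 1 passing by DESeq2.

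Of 22 tested alveolar fibroblast genes, 7 passed the FDR as lower (1.44% of all tested genes did), of which 2 were called (0.203%), and 1 passed as higher (1.54%). The number that passed as lower was 9 without the second rat of Year 1, 4 without the third rat of Year 2, 0 without the second, and 1 without any one of the other 3 rats. *Npnt* passed as lower in the control rats (log2 fold change -0.60, FDR = 0.0382). *Slc7a10*, a transporter of small neutral amino acids (chromosome 1, 91433030 to 91448564), was at 22.6, 10.03, and 17.2 TPM in the Year 1 rats and 3.17, 3.01, and 5.88 TPM in the Year 2 rats, and fell 4.05-fold (log2 fold change -2.02 ± 0.32, FDR = 0.0172). It was at 56.2, 55.8, and 57.9 TPM and then 54.5, 57.1, and 48.1 TPM in the control rats, and its change differed between treated and control rats (FDR = 0.0376). *Cdo1*, which oxidizes cysteine, was at 55.7, 46.98, and 80.8 TPM and then 20.5, 27.7, and 26.4 TPM (log2 fold change -1.27 ± 0.18, FDR = 0.0143), with the third rat of Year 1 the highest, and its log2 fold change in the control rats was -0.64 (FDR = 0.123). *Limch1*, a cytoskeletal regulator, was at 159.9, 108, and 149 TPM and then 69.9, 82.7, and 91.5 TPM, and *Gpc3*, a cell-surface proteoglycan, at 218, 198, and 212 TPM and then 148, 163, and 140.5 TPM. *Scn7a*, an atypical sodium channel, was the gene that rose, from 15.3, 12.9, and 16.4 TPM to 21.9, 21.5, and 21.8 TPM (log2 fold change 0.57 ± 0.08, FDR = 0.0137).

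*Fmo2* and *Fmo1*, flavin monooxygenases that oxidize foreign compounds, were called lower, with *Fmo2* at 136, 90.4, and 153 TPM in the Year 1 rats and 47.2, 42.8, and 61.3 TPM in the Year 2 rats and *Fmo1* at 153, 99.95, and 134 TPM and then 49.6, 60.4, and 74.2 TPM. *Hpgd*, which inactivates prostaglandins, was at 38.9, 31.5, and 33.7 TPM and then 13.04, 14.2, and 19.7 TPM (log2 fold change -1.13 ± 0.15, FDR = 0.0121). The control rats had log2 fold changes of -0.50 for *Fmo2*, -0.14 for *Fmo1*, and -0.02 for *Hpgd*, and none passed. *Gsta4*, the glutathione transferase that removes the lipid peroxidation product hydroxynonenal, was at 84.99, 76.6, and 86.6 TPM and then 32.7, 45.5, and 43.3 TPM (log2 fold change -1.01 ± 0.11, FDR = 0.00887). The control rats were between 131 and 164 TPM for *Gsta4* at both years. Of the 22 tested NRF2 targets and metallothioneins, 3 passed as lower and 1 as higher, against 1.44% and 1.54% of all tested genes. *Gsta4*, *Gsta1* (log2 fold change -0.42 ± 0.08), and *Nqo1* (log2 fold change -0.46 ± 0.09) fell. *Slc7a11*, the cystine importer for glutathione synthesis, rose from 1.75, 1.86, and 2.01 TPM to 5.03, 4.63, and 3.41 TPM (log2 fold change 1.24 ± 0.17, FDR = 0.0127). Without the second rat of Year 1, 3 passed in each direction, and without the first, 2 passed as lower and 1 as higher. Without any other single rat, 1 passed as lower and at most 2 as higher. *Mt3*, a metallothionein, was at 44.6, 81.03, and 44.7 TPM and then 139.6, 183, and 85.4 TPM without overlap and did not pass (FDR = 0.0784).

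Of 31 tested chemokine ligands, 4 passed the FDR as lower at Year 2 (1.44% of all tested genes did) and none as higher. The number lower was again 4 without the second rat of Year 1, 0 without the third rat of Year 2, and 1 without any one of the other 4 rats. *Ccl11*, eotaxin, which draws eosinophils (chromosome 10, 69434941 to 69439575), was at 2.76, 4.03, and 3.11 TPM in the Year 1 rats and 0.625, 0.659, and 0.474 TPM in the Year 2 rats, where 5, 6, and 4 reads were counted, and fell 5.496-fold (log2 fold change -2.46 ± 0.39, FDR = 0.0172). The control rats were at 9.997, 10.7, and 7.26 TPM and then 4.297, 4.47, and 3.04 TPM, a log2 fold change of -1.20 that did not pass (FDR = 0.0609), and the interaction did not pass either (FDR = 0.202). *Cxcl14* was at 26.5, 18.2, and 25.4 TPM and then 9.96, 14.9, and 8.63 TPM (log2 fold change -1.04 ± 0.20, FDR = 0.0355). *Cxcl17*, a chemokine of mucosal surfaces, was at 339, 341, and 290.4 TPM and then 219, 188, and 196 TPM, and the neutrophil chemokine *Cxcl3* was at 804, 779.9, and 681 TPM and then 555, 421, and 489 TPM. *Cxcl3* passed as lower in the control rats too (log2 fold change -0.93, FDR = 0.0382). *Ackr4*, a scavenging receptor that removes other chemokines, was called at 8.601, 6.54, and 13.3 TPM and then 2.51, 2.81, and 2.32 TPM (log2 fold change -1.86 ± 0.25, FDR = 0.0129).

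**Figure D3:**
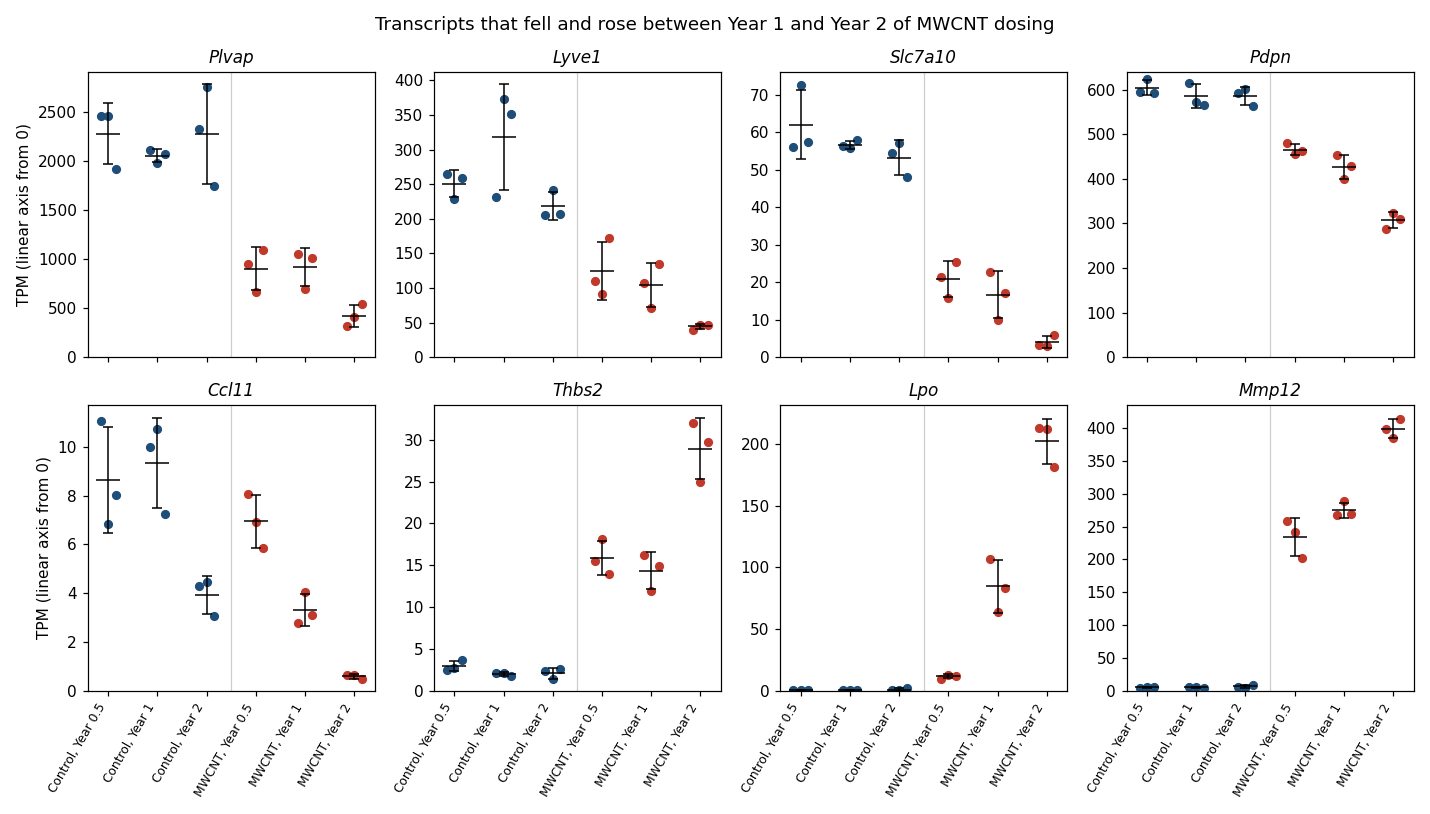
TPM of 8 further genes in each of the 18 rats (points; linear y axes from 0), by treatment and time point, with the mean and SD of each group of 3 (bars). *Plvap*, *Lyve1*, *Slc7a10*, *Pdpn*, and *Ccl11* are lower, and *Thbs2*, *Lpo*, and *Mmp12* higher, in all 3 MWCNT-treated rats of Year 2 than in the 3 of Year 1.

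Receptors of myeloid cells and of hormones were also among the called genes that rose, and those given here were chosen after their values were seen. *Lilrb3*, an inhibitory receptor of myeloid cells, was at 20.9, 38.9, and 26.4 TPM in the Year 1 rats and 76.4, 84.5, and 59.8 TPM in the Year 2 rats (log2 fold change 1.36 ± 0.23, FDR = 0.0225), *Cd300lb*, an activating one, at 12.5, 19.4, and 15.1 TPM and then 30.5, 38.3, and 27.2 TPM, and *Cd72*, best known from B cells, at 7.33, 11.998, and 8.53 TPM and then 22.7, 21.9, and 22.1 TPM. The second rat of Year 1 was the highest of its group in all 3, and without it the FDR was 0.00464, 0.00719, and 0.00337. Across all 17 alternative fits the highest FDR was 0.111, 0.121, and 0.0798. The FDR threshold was lost in 4, 4, and 3 of those fits. *Sctr*, the receptor for secretin, was at 11.4, 26.1, and 20.99 TPM and then 53.8, 64.03, and 49.8 TPM (log2 fold change 1.52 ± 0.26, FDR = 0.0225), with at most 0.897 TPM in the 9 control rats. *Gcgr*, the receptor for glucagon, was at 3.27, 6.29, and 4.51 TPM and then 13.6, 17.6, and 11.8 TPM (log2 fold change 1.61 ± 0.26, FDR = 0.0176), and *Trh*, thyrotropin-releasing hormone, at 3.31, 6.16, and 4.08 TPM and then 12.3, 18.3, and 10.1 TPM (log2 fold change 1.58 ± 0.30, FDR = 0.0307). These genes are best known from liver, pancreas, and brain, and here all 3 lay above all control rats at both years. *Ntrk2*, the receptor for brain-derived neurotrophic factor, was at 2.62, 3.92, and 2.95 TPM and then 10.9, 5.67, and 10.8 TPM (log2 fold change 1.54 ± 0.27, FDR = 0.0237), and the control rats of Year 2, at 1.07, 2.76, and 8.62 TPM, reached into the same range.

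The remaining genes named by rule are less readily grouped. *Ptcd3*, a protein of mitochondrial translation, was at 69.7, 87.8, and 72.9 TPM in the Year 1 rats and 170.1, 204, and 155 TPM in the Year 2 rats (log2 fold change 1.21 ± 0.14, FDR = 0.00941), while the control rats stayed between 25.1 and 29.6 TPM. *Tmprss6*, a membrane serine protease, was at 0.849, 0.872, and 0.443 TPM and then 2.15, 3.37, and 2.56 TPM (log2 fold change 1.90 ± 0.32). Of the falls, *Lrrn3* was at 8.01, 5.86, and 7.16 TPM and then 1.93, 2.62, and 2.91 TPM. *Krt76* (log2 fold change -1.23 ± 0.17), *Ooep* (-1.39 ± 0.12), *Ccdc3* (-1.69 ± 0.37), and *Gpr158* (-1.32 ± 0.27) were called lower as well. Outside the rule, *Cyp2e1*, a cytochrome P450 enzyme, was at 7.39, 6.42, and 9.64 TPM and then 3.53, 3.86, and 3.398 TPM, *Scube2*, which releases hedgehog ligands from cells, at 23.6, 14.4, and 21.4 TPM and then 8.51, 8.68, and 10.6 TPM, and *Spock2*, a proteoglycan, at 106, 63.9, and 107 TPM and then 30.6, 40.5, and 55.7 TPM, all called lower. *Scube2* passed the FDR in the control rats too (log2 fold change -0.83, FDR = 0.0337). The largest fall was listed for *Actg1*, cytoplasmic gamma actin (chromosome 10, 109519134 to 109520846), at 87.5, 148, and 93.6 TPM and then 2.24, 4.13, and 0.319 TPM (log2 fold change -5.58 ± 0.46). Because *Actg1* was listed at 0 TPM in all 3 control rats of Year 2 although every cell uses this gene, and actin has many near-identical copies, its counts are uncertain.

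Other processes showed few passing genes or none between the years. Together 197 genes were tested from 8 lists, those of B and plasma cells, T and NK cells, mitosis and DNA replication, the respiratory chain, Wnt signalling, ERBB ligands and receptors, endoplasmic reticulum stress, and the immediate early response. These 8 lists were put together with it known that none of their genes passed by edgeR (2.98% of all tested genes did). The 0 of 197 was thus fixed by that choice. By DESeq2, 13 of the 197 passed. An unadjusted p below 0.05 was reached by 45 of the 197, against 18.6% of all tested genes. Without the second rat of Year 1, 3 of the 39 Wnt genes passed as higher and 8 as lower, and in each of the other lists at most 2 passed in a direction. Without any one of the other 5 rats, at most 2 of any of these lists passed in a direction. Of 59 guidance genes, such as ephrins and semaphorins, 2 passed as higher and 2 as lower, against 1.54% and 1.44% of all tested genes. Without the second rat of Year 1, 11 passed as lower, and without any one of the other 5 rats at most 4. Heart muscle markers, which could enter with tissue from the great veins, gave 0 passing genes of 11 by edgeR (2.98% of all tested genes passed) or DESeq2. None was at an unadjusted p below 0.05 (18.6% of all tested genes were). Their summed level was 18.3, 277, and 196 TPM in the Year 1 rats and 83.9, 145, and 78.9 TPM in the Year 2 rats. Of the 22 genes on the qRT-PCR list, 20 were tested, and *Mmp12* passed as higher and *Cav1* as lower, against 1.54% and 1.44% of all tested genes. Without the second rat of Year 1, 3 passed in each direction. Without the third rat of Year 2, 2 passed as higher and 1 as lower, and without any other single rat none passed. The qRT-PCR list had been chosen by the authors on these samples.

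The 78 called genes were set beside the comparison of MWCNT-treated and control rats at Year 0.5, whose 6 rats are not among those of Year 1 or Year 2. That comparison called 1303 of 14315 genes (9.1%), with 869 higher (6.07%) and 434 lower (3.03%). Of the 49 genes that rose between Year 1 and Year 2, 43 were tested at Year 0.5, and 23 of them (53.5%) were called higher in the MWCNT-treated rats and 1 lower, against 6.15% of all genes tested in both comparisons called higher. Of the 29 that fell, 14 (48.3%) were called lower at Year 0.5 and 2 higher, against 2.76% called lower. *Lpo* (log2 fold change at Year 0.5 5.47) and *Thbs2* (2.58) were among the first group, and *Esm1* (-2.21), *Slc7a10* (-1.44), and *Plvap* (-1.20) among the second. Several of the largest changes were not called at Year 0.5. *Mcpt8l3* (0.50, FDR = 0.348), *Ms4a2* (1.00, FDR = 0.209), *Thy1* (0.63, FDR = 0.0795), and *Ccl11* (-0.18, FDR = 0.599) were of this kind. The called genes of the opposite direction were *Itih1* and *Snap91*, which were called higher at Year 0.5 and lower at Year 2 than at Year 1, with *Itih1* at 8.34, 8.07, and 7.403 TPM at Year 0.5, 7.91, 6.25, and 8.24 TPM at Year 1, and 3.78, 2.902, and 3.83 TPM at Year 2. *Slc45a3* was called lower at Year 0.5 and rose from Year 1 to Year 2. *Actg1*, *Acp4*, *Slc18a2*, and *Tenm3* also differed in sign between the comparisons but were not called at Year 0.5.

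**Figure D4:**
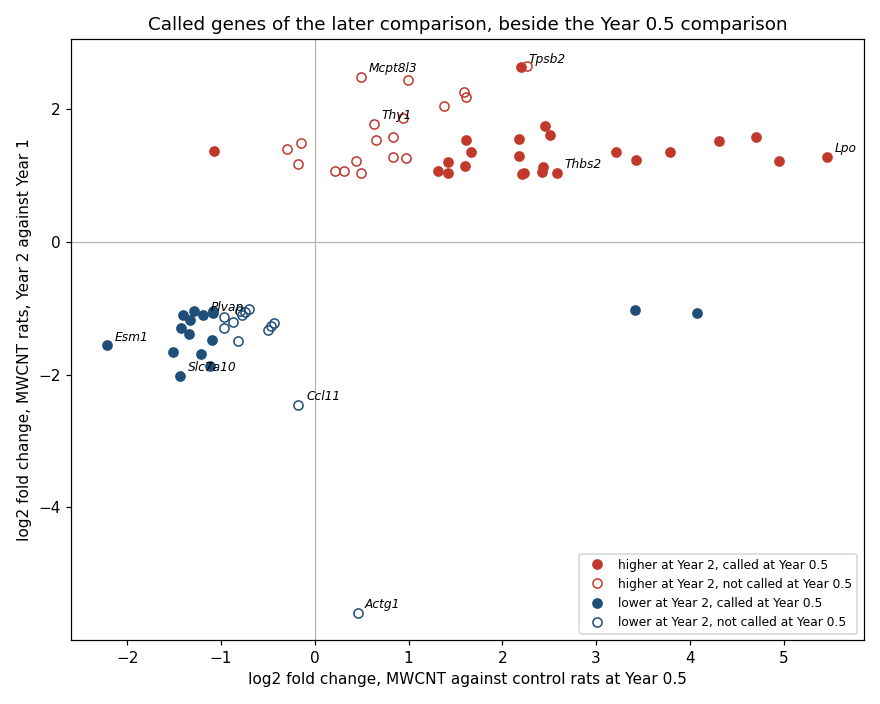
Log2 fold change of the 72 called genes that were tested in both comparisons, MWCNT-treated against control rats at Year 0.5 (x axis) and Year 2 against Year 1 in MWCNT-treated rats (y axis; filled points were also called at Year 0.5). Most genes that rose lie at positive and most that fell at negative values of the x axis, while *Mcpt8l3*, *Thy1*, and *Ccl11* lie near 0 on it.

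In the control rats, 61 of the 78 genes were tested between the years and 0 were called, against 0.133% of all tested genes. At an FDR below 0.05 alone 2 passed by edgeR (0.919% of all tested genes did) and 10 by DESeq2. An unadjusted p below 0.05 was reached by 18 of the 61, against 23.7% of all tested genes. Of the 49 that rose, 33 were tested and 22 had a positive log2 fold change (66.7%, against 50.8% of all tested genes), and of the 29 that fell, 28 were tested and 23 had a negative one (82.1%, against 49.2%). A test of the difference between the changes of treated and control rats passed an FDR of 0.05 for 38 of 14730 genes (0.258%), 15 (0.102%) with a larger and 23 (0.156%) with a smaller log2 fold change in the MWCNT-treated rats. *Slc18a2*, *Mcpt8l3*, *Ptcd3*, *Lrrn3*, *Hpgd*, *Gsta4*, *Krt76*, and *Slc7a10* were the called genes named above with the smallest values in that test.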

How the data were processed

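RNA-seq of lung tissue was compared between 3 MWCNT-treated rats of Year 2 and 3 of Year 1, with the control rats and the Year 0.5 rats beside them. The authors mapped the reads with CLC Genomics Workbench, per the labels to the rat genome build Rnor_6.0 (rn6), and deposited counts, whole numbers of reads for each gene with no scaling, and TPM values, which are scaled for gene length and library total. The deposited tables list 22081 genes, and gene positions in the text are those of the tables. How reads shared by similar genes were counted is not given in the sources used here. Another 36 columns of RPKM and CPM values and the authors' own comparison columns (fold changes and p-values) were not used. *Gapdh* and *Pecam1* were not analysed here.

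Counts of the rats compared were fitted in R 4.3.3 with edgeR 4.0.16 (filterByExpr at 10 counts a rat and 15 in total, TMM factors, quasi-likelihood test, Benjamini-Hochberg FDR over all tested genes). Each comparison used only its own rats, and the interaction used the 12 rats of Years 1 and 2. Standard errors (after ±) are the log2 fold change divided by the square root of F. Groups held 3 rats, so p-values measure the spread between those animals. Medians and counts of gene lists were given with no test. Principal components used log2 CPM with a prior count of 2. Promoters were from RefSeq on GRCr8. The comparison, lists, rule, and alternatives were chosen with earlier results of these data known.

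The rule named the 12 largest rises and the 12 largest falls among called genes without overlap and with a mean TPM of at least 1, the 8 called genes of highest TPM, up to 5 passing genes of each list (or 2 of the highest TPM), the qRT-PCR genes of the study, the 8 called genes with the smallest interaction p, and lung and heart markers. The text describes those that bear on its groups, a few are not reported here, and *Cpa3*, *Kit*, *Gata2*, *Hpgds*, *Mrgprx2*, *Tgfbr1*, *Gpnmb*, *Trem2*, *Kdr*, *Itih1*, *Snap91*, *Slc45a3*, *Lpl*, *Msr1*, *Npnt*, *Tie1*, *Flt1*, *Acp4*, and *Tenm3* were added after their values were seen. Alternatives were other scalings (library size, upper quartile), filters (none, at least 10 counts in every rat), tests (DESeq2 1.42.0, likelihood ratio test, limma 3.58.1 on log2(TPM + 1) and log2(TPM + 0.1)), one model of 18 rats, a replicate block, thresholds, each rat left out, and removal of unnamed or duplicated entries.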

Additional observations from a re-analysis of the deposited data

Results flagged for a closer look

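The change from Year 1 to Year 2 differed between MWCNT-treated and control rats for 38 genes by the interaction term of edgeR, and 10 of them are genes described above. The difference of the log2 changes (MWCNT-treated minus control) was positive for *Mcpt8l3* at 2.54, *Slc18a2* at 1.23, *Ptcd3* at 1.17, and *Col1a1* at 0.93. It was negative for *Slc7a10* at -1.97, *Krt76* at -1.34, *Lrrn3* at -1.14, *Hpgd* at -1.12, *Gsta4* at -1.12, and *Bmp6* at -0.64. *Mcpt8l3* and *Slc18a2* belong to the granules of basophils and mast cells, *Col1a1* to matrix, and the genes with negative values to enzymes, transport, and signalling of the alveolar wall or to no group named here. The number of genes that passed ranged from 0 to 286 with 1 of the 12 rats left out, was 6 with the replicate block, and was 460 by DESeq2. Groups of 3 rats were too small for a check of single outlying rats.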

How the results depend on the processing

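The count of called genes between Year 1 and Year 2 in MWCNT-treated rats (78) was 135 by DESeq2, 188 by the likelihood ratio test, 134 in one model of 18 rats, 426 at an FDR below 0.05 alone, and 18 at an FDR below 0.01, and ranged from 13 to 156 with 1 rat left out. It stayed within 1.5 times under the other 8 alternatives, and all 78 genes tested again kept their direction by DESeq2, limma, and the 18-rat model. The control count (19) was 49 with no filter, 38 with 10 counts in every rat, 49 by DESeq2, 102 by the likelihood ratio test, 9 and 10 by limma on log2(TPM + 1) and log2(TPM + 0.1), 74 in one model, 35 without duplicated or unnamed entries, 131 at an FDR below 0.05 alone, 0 at an FDR below 0.01, and 0 to 125 with 1 rat left out. The interaction count (38) was 89 with 10 counts in every rat, 460 by DESeq2, 393 by the likelihood ratio test, 21 by limma on log2(TPM + 0.1), 71 in one model, 13 with an absolute log2 difference above 1, 0 at an FDR below 0.01, and 0 to 286 with 1 rat left out. The Year 0.5 count (1303) was 5549 at an FDR below 0.05 alone and 960 to 1443 with 1 rat left out.

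Mast cell genes called higher (6) were 3 at an FDR below 0.01 and 0 to 8 with 1 rat left out, and those that passed the FDR alone (7) were likewise 3 and 0 to 8. Endothelial genes called lower (3) were 0 at an FDR below 0.01 and 0 to 5 with 1 rat left out. Those that passed the FDR alone (10) were 23 by DESeq2, 24 by the likelihood ratio test, 5 and 3 by limma on log2(TPM + 1) and log2(TPM + 0.1), 20 in one model, 0 at an FDR below 0.01, and 0 to 22 with 1 rat left out. Type 1 cell genes that passed (9) were 5 and 4 by the same limma fits, 0 at an FDR below 0.01, and 0 to 14 with 1 rat left out. The cause of these differences was not tested. The 104 genes of the text that were refitted singly did not change direction in any of 1763 refits. Of these refits, 357 lost and 50 gained the FDR threshold. Some genes of the text, such as *Tie1* and *Flt1*, were not among the 104.

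Replicate numbers of the labels did not pair the rats. Deviations from the year mean correlated at -0.101, 0.084, and 0.095 between rats of the same number, and not every rat correlated best with its own number. With the replicate block, 79 genes were called in the MWCNT-treated rats, 10 in the control rats, and 1279 at Year 0.5, and 6 passed the interaction. At 3 rats a year, genes with few counts, such as *Ccl11* with at most 6 reads in a Year 2 rat, have the least precise values.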
